A study of Mus musculus with 6 samples.

Results

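The 10 genes Trpv5, Trpm6, Trpm7, Calb1, S100g, Slc8a1, Pvalb, Casr, Cnnm2 and Atp2b1, which carry or sense calcium and magnesium in the distal nephron, were picked by symbol from a table of 25031 genes measured by RNA sequencing in mouse kidney. Each symbol matched 1 row, and all 10 passed the filter on low counts that left 15416 genes for testing. The 6 libraries came from whole kidneys of wild-type (WT) male C57BL/6 mice aged 7 to 8 weeks. In every animal both kidneys had 23 minutes of ischemia followed by reperfusion, with body temperature held at 37 °C. This is a model of acute kidney injury, so the controls carry the injury too. The vehicle group (3 libraries) received saline, and the CePPy group (3 libraries) received 5 mg/kg of (+)CePPy by vein directly after the injury. The study's title describes (+)CePPy as polypyrrole nanoparticles with a positive charge, doped with cerium. The sources used here give no time of collection, and uninjured kidneys were not analysed here.

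Most filtered calcium is taken back in the proximal tubule and most magnesium in the thick ascending limb, largely by passing between the cells, while the distal convoluted and connecting tubules make the last, regulated adjustment by moving the ions through the cells. Calcium enters from the urine through the channel TRPV5, is bound in the cytosol by calbindins, and leaves on the blood side through the sodium-calcium exchanger NCX1 (Slc8a1) and the calcium pump PMCA1 (Atp2b1). Magnesium enters through TRPM6, which assembles with TRPM7, and its return to the blood involves CNNM2. The calcium-sensing receptor CaSR lies mainly on the blood side of the thick ascending limb.

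All 10 genes had a higher fitted value in CePPy kidneys, a direction shared by 50.5% of all genes tested, and their median log2 fold change was 0.37 against 0.00 over all genes. The fitted differences ran from 0.06 for Atp2b1 to 4.32 for Pvalb. None of the 10 passed the edgeR quasi-likelihood test after adjustment over all genes, where the lowest adjusted p was 0.124; in the higher direction this test called 0% of genes, and in both directions together 0.00649%. At an unadjusted p under 0.05, 6 of the 10 were higher (9.65% of all genes) and 0 lower. DESeq2 called 3 of the 10 higher, Pvalb, Casr and Trpm7 (3.43% of all genes). Without CePPy 2, edgeR called Pvalb, Slc8a1 and Casr, 3 of the 10, against 2.98% of the genes in that fit called higher. Pvalb reached the tests largely through the CePPy group, in which it is high, so these counts are partly fixed by the filter; without Pvalb they are 5, 2 and 2 of 9. Without vehicle 1, CePPy 1 or CePPy 2 in turn, 9 of the 10 had a fitted value above 0. In 4 genes, Trpv5, Trpm7, Slc8a1 and Casr, every CePPy library lay above every vehicle library, which held for 12.3% of all genes. The 10 genes and the lists below were chosen with earlier results of these data known. Their counts beside the shares of all genes are therefore descriptions, not tests.

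**Figure D1:**
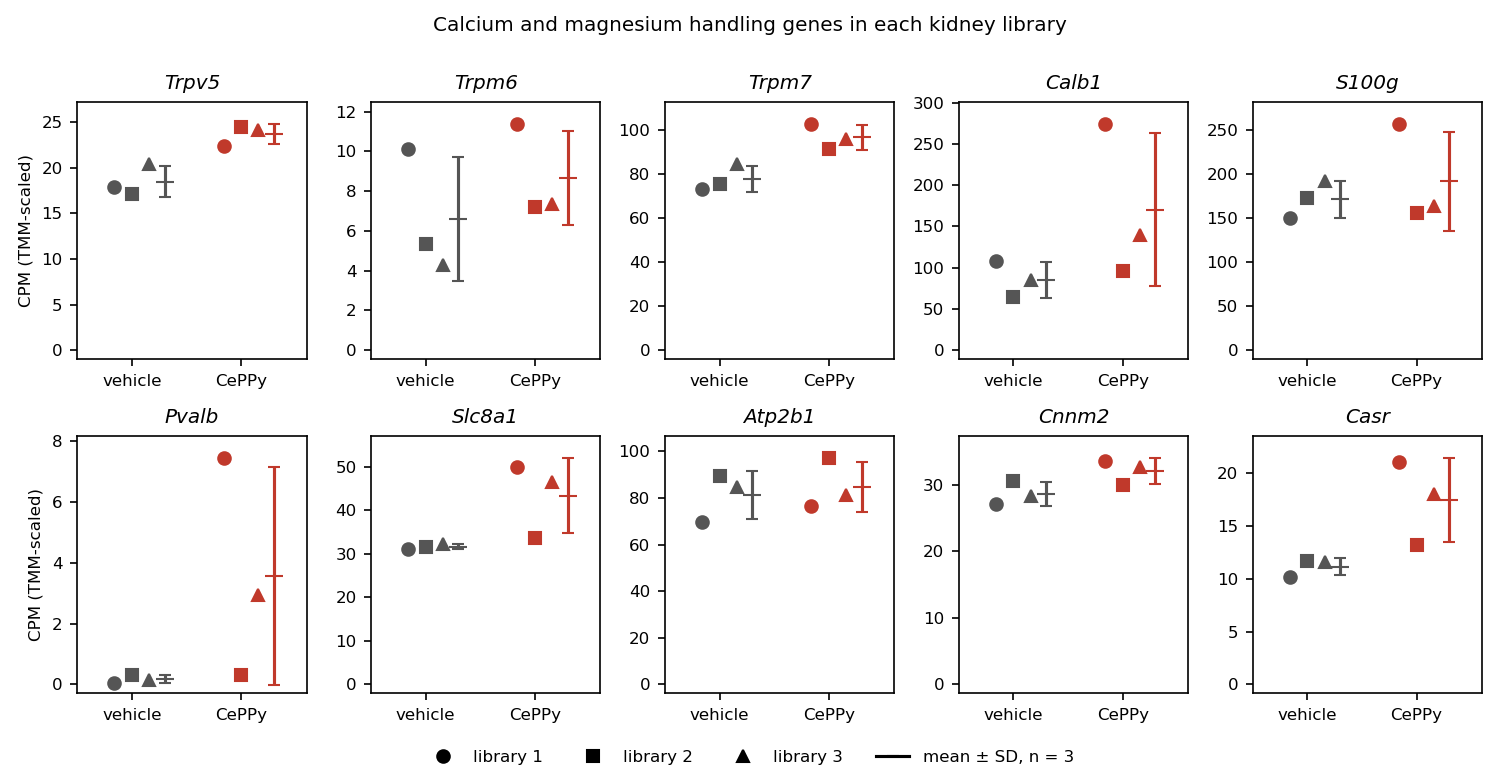
Read counts scaled to library size (CPM, on TMM-scaled totals) of each of the 10 genes in every kidney library, with circles, squares and triangles for libraries 1, 2 and 3 of each group and a bar for mean ± SD (n = 3). Trpv5, Trpm7, Slc8a1 and Casr have no overlap between groups, and CePPy 1 is the highest library for 8 of the 10.

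The depth and the make-up of the libraries bear on all of these values. Totals ran from 29762157 to 37415213 counts per library, and 1 count equalled 0.0266 to 0.0333 CPM. Nothing in the labels ties each library to its own animal. The p-values therefore rest on library-to-library spread, part of which may be technical. In the marker sums of the thick limb, the proximal tubule and tubular injury, CePPy 1 stood farthest from vehicle and CePPy 2 nearest. Relative to the vehicle mean, summed thick ascending limb markers lay at 1.12, 0.30 and 0.57 log2 units in CePPy 1, 2 and 3, and proximal tubule markers at 1.37, 0.22 and 0.80. Umod made up most of the thick limb sum, at 2486 of 2750 CPM in vehicle 1 and 5406 of 6220 in CePPy 1. Of the 6 thick limb markers, 5 had all CePPy libraries above all vehicle libraries (12.3% of all genes), and Cldn10 overlapped. Tubular injury markers lay at -1.40, -0.19 and -0.68 log2 units in CePPy 1, 2 and 3. Clu and Havcr1 made up most of that sum, at 3855 and 2954 of 7529 CPM in vehicle 1. Of the 6 injury markers, 1 had a log2 fold change above 0 (50.5% of all genes), Vcam1, at 0.38 with overlapping groups. In whole-kidney RNA, fewer cells of a type and less RNA per cell cannot be told apart.

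Promoter sequences are shown for 4 genes whose values contrast: Pvalb, with the widest difference, Trpv5 and Trpm7, whose groups separated with a small spread, and S100g, whose groups overlapped. Each is the 250 bases before a RefSeq transcription start (GRCm38.p6), written 5′ to 3′ on the gene's strand, which is minus for all 4. Of the 10 genes, 9 matched an entry by symbol, all except Calb1. Capitals mark matches on either strand to TATAAA (the TATA box core), AGGTCA (a sequence bound by many nuclear receptors), GTTAAT (part of the HNF1 site), CACGTG (the E-box) or TGACG (part of the cAMP response element), and none of the matches overlap.
Pvalb, upstream start, chr15:78206401-78206650: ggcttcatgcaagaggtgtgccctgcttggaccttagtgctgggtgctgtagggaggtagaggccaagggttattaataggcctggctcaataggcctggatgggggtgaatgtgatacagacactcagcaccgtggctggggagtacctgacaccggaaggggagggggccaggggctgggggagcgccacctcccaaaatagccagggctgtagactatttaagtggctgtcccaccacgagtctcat
Trpv5, chr6:41680724-41680973: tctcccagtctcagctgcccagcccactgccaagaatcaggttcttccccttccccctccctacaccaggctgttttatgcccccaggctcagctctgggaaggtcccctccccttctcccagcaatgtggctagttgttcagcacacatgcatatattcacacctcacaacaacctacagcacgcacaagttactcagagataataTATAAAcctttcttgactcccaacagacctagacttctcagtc
Trpm7, chr2:126876262-126876511: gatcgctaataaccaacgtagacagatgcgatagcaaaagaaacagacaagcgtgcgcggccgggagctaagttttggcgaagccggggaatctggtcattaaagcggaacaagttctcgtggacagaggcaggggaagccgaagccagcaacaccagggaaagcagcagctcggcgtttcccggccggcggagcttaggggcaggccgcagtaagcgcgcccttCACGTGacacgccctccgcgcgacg
S100g, chrX:162964600-162964849: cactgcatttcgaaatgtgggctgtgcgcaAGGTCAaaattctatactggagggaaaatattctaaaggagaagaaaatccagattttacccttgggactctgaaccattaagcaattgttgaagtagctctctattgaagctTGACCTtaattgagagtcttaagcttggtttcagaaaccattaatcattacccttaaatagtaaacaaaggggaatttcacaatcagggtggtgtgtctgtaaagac
The Trpv5 window held TATAAA starting 43 bases before the start, and 12.4% of 32851 windows in the table held that sequence. The Trpm7 window held CACGTG (6.02% of windows), and the S100g window held AGGTCA on each strand (0.606% of windows, with 14% holding it on either strand). None of the 5 sequences was in the Pvalb window shown. GTTAAT (6.43% of windows) and TGACG (17.8%) had no match in the 11 windows of the 9 genes.

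Of the entry channels, Trpv5 encodes the calcium channel of the urine-facing membrane, and the gene lies on chromosome 6 (41652173 to 41680769, minus strand, GRCm38). It measured 17.9, 17.1 and 20.4 CPM (on TMM-scaled library sizes) in vehicle and 22.4, 24.4 and 24.1 in CePPy. The groups did not overlap, and this was the only entry channel that was highest in CePPy 2. The means were 18.4 ± 1.70 and 23.6 ± 1.11 CPM (SD, n = 3), a log2 fold change of 0.36 with a 95% interval of 0.12 to 0.60 (edgeR adjusted p = 0.147). Trpv6, the related channel gene that lies 15767 bases away on the same strand and was singled out after its values were seen, measured 3.96 ± 1.90 and 4.60 ± 1.25 CPM (log2 fold change 0.21, edgeR adjusted p = 0.783).

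The magnesium channels TRPM6 and TRPM7 each join an ion pore to a protein kinase, TRPM7 being made in most tissues and TRPM6 mainly in the distal convoluted tubule and gut. Trpm7 (chromosome 2, 126791565 to 126876230, minus strand) measured 73.2, 75.2 and 84.5 CPM in vehicle and 103, 91.4 and 95.8 in CePPy. Its groups did not overlap, with means of 77.7 ± 6.04 and 96.6 ± 5.63 CPM, a log2 fold change of 0.31 and a 95% interval of 0.11 to 0.52 (edgeR adjusted p = 0.139; DESeq2 adjusted p = 0.0436). Trpm6 (chromosome 19, 18749983 to 18892511, plus strand) measured 10.1, 5.36 and 4.28 CPM in vehicle and 11.4, 7.21 and 7.37 in CePPy. Here vehicle 1 stood above CePPy 2 and CePPy 3, so the groups overlapped. The log2 fold change was 0.39, with a 95% interval of -0.39 to 1.17 (edgeR adjusted p = 0.559). Without vehicle 1 it was 0.84 and without CePPy 1 it was 0.15, so its size depended on both libraries.

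Among the cytosolic calcium buffers, Calb1 encodes calbindin-D28k, the main calcium carrier of the late distal convoluted and connecting tubule (chromosome 4, 15881264 to 15908064, plus strand). It measured 107.8, 64.1 and 84.5 CPM in vehicle and 274, 95.7 and 140.1 in CePPy. CePPy 1 was far above all other libraries, and vehicle 1 exceeded CePPy 2. The mean was 1.99-fold that of vehicle, with a log2 fold change of 0.99 and a 95% interval of 0.15 to 1.83 (edgeR adjusted p = 0.205). Without CePPy 1 the log2 fold change was 0.47.

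S100g encodes calbindin-D9k, a small vitamin D-dependent calcium binder (X chromosome, 162961992 to 162964599, minus strand). It measured 150.4, 173 and 192 CPM in vehicle and 257, 156 and 164 in CePPy. CePPy 2 and CePPy 3 lay within the vehicle range and CePPy 1 above it. The log2 fold change was 0.16, with a 95% interval of -0.29 to 0.61 (edgeR adjusted p = 0.679), and it turned to -0.10 without CePPy 1. The S100g gene overlaps Ctps2 on the opposite strand but shares no annotated exon with it.

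Pvalb encodes parvalbumin, a calcium buffer that in mouse kidney marks the early distal convoluted tubule and is also made in fast skeletal muscle and some neurons (chromosome 15, 78191114 to 78206400, minus strand). It was counted 2, 11 and 5 times in vehicle and 264, 12 and 88 times in CePPy, or 0.0557, 0.324 and 0.148 CPM against 7.43, 0.319 and 2.93. CePPy 1 and CePPy 3 stood clear of vehicle, while CePPy 2 lay just under vehicle 2. The log2 fold change was 4.32, with a 95% interval of 1.77 to 6.87 (edgeR adjusted p = 0.124; DESeq2 adjusted p = 0.00018). In edgeR it was 3.18 without CePPy 1 and 5.09 without vehicle 2. By limma-voom, with all 6 libraries, it was 3.575 (unadjusted p = 0.0898, adjusted p = 0.333). Only 1 vehicle library reached 10 counts, against 3 CePPy libraries, so Pvalb passed the low-count filter largely through the group in which it was high. Of 9 skeletal muscle markers, Myh1, Myh2, Myh4 and Tnnt3 were at 0 in all 6 libraries, and the sum of the 9 ran from 0.475 to 1.12 CPM in vehicle and 0.647 to 0.877 in CePPy.

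Of the exits on the blood side, Slc8a1, the exchanger NCX1 (chromosome 17, 81373105 to 81738377, minus strand), measured 31.1, 31.6 and 32.1 CPM in vehicle and 49.9, 33.7 and 46.4 in CePPy. The vehicle libraries were tightly grouped, and CePPy 2 lay just above them. The means were 31.6 ± 0.536 and 43.3 ± 8.55 CPM, a log2 fold change of 0.45 with a 95% interval of 0.13 to 0.78 (edgeR adjusted p = 0.162), and the adjusted p was 0.0172 without CePPy 2 and 0.259 to 0.377 with any other library left out. NCX1 is also made in heart and smooth muscle. The 4 heart muscle markers summed to 0.266 to 0.647 CPM over the 6 libraries, and the sum of the 5 smooth muscle markers was 393 to 560.3 CPM in vehicle and 257 to 318.5 in CePPy. Of those 5, Acta2 and Tagln had no overlap between groups, and the other 3 overlapped. The exons of Slc8a1 overlap an antisense gene over 296 bases, and the sources used here do not say whether counting used strand.

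Atp2b1, the widely made calcium pump PMCA1 (chromosome 10, 98914406 to 99026143, plus strand), measured 69.9, 89.5 and 84.9 CPM in vehicle and 76.4, 97.0 and 81.1 in CePPy. The groups overlapped, and library 2 was the highest of both. The log2 fold change was 0.06, with a 95% interval of -0.23 to 0.35 (edgeR adjusted p = 0.827), which leaves out changes above 1.27-fold. It turned to -0.040 without vehicle 1 and -0.049 without CePPy 2. Cnnm2, a blood-side membrane protein needed for magnesium balance (chromosome 19, 46761596 to 46880192, plus strand), measured 27.1, 30.6 and 28.3 CPM in vehicle and 33.6, 29.9 and 32.7 in CePPy. Vehicle 2 exceeded CePPy 2, and the log2 fold change was 0.16 with a 95% interval of -0.05 to 0.37 (edgeR adjusted p = 0.367).

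Casr, the receptor that senses calcium in the blood and lowers its reabsorption in the thick limb (chromosome 16, 36493696 to 36562141, minus strand), measured 10.2, 11.7 and 11.6 CPM in vehicle and 21.1, 13.2 and 18.0 in CePPy. The groups did not overlap. The means were 11.2 ± 0.835 and 17.4 ± 3.96 CPM, a 1.56-fold ratio, with a log2 fold change of 0.64 and a 95% interval of 0.24 to 1.05 (edgeR adjusted p = 0.137; DESeq2 adjusted p = 0.0246). The edgeR adjusted p was 0.0255 without CePPy 2, the CePPy library nearest to vehicle, and 0.202 to 0.362 with any other library left out. Relative to the vehicle mean, Casr lay at 0.92, 0.24 and 0.69 log2 units in CePPy 1, 2 and 3, beside the thick ascending limb marker sum given above. The part of that marker shift in the Casr values was not tested. The receptor is best known from the parathyroid gland, whose defining genes Pth and Gcm2 were at 0 in all 6 libraries.

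**Figure D2:**
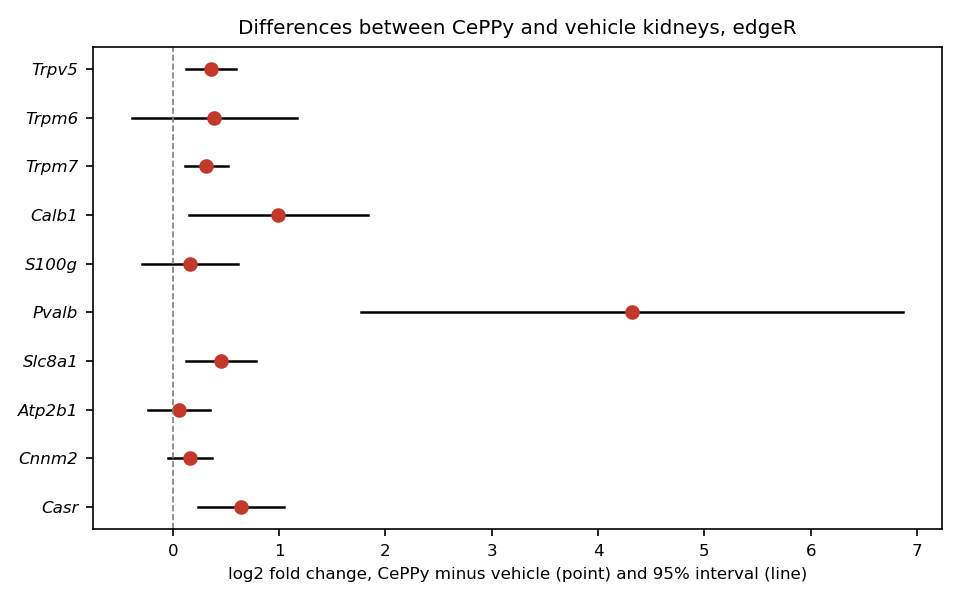
Log2 fold change of CePPy minus vehicle for each of the 10 genes (points) with its 95% interval from the edgeR fit (lines, 3 libraries per group). The intervals of Trpm6, S100g, Atp2b1 and Cnnm2 cross 0, and that of Pvalb runs from 1.77 to 6.87.

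Levels were compared between genes as CPM per kilobase of annotated exon. S100g was by far the most abundant in vehicle, at 358 ± 43.8 CPM per kilobase, followed by Calb1 at 17.6 ± 4.51 and Trpm7 at 6.86 ± 0.534. Trpv5 (5.69 ± 0.524), Cnnm2 (5.55 ± 0.345) and Atp2b1 (5.35 ± 0.673) came next, and the libraries of these 3 genes overlapped, so their order is not resolved. Casr, at 2.36 ± 0.177, and Slc8a1, at 1.68 ± 0.0285, were lower. Trpm6, the distal magnesium channel, stood at only 0.854 ± 0.404, and Pvalb was last at 0.169 ± 0.131. In CePPy the first 7 places were held by the same genes in the same order. Pvalb, at 3.42 ± 3.45, then had a mean above Slc8a1 (2.30 ± 0.455) and Trpm6 (1.12 ± 0.305), although its own libraries ranged from 0.307 to 7.14. Exon lengths are unions over annotated transcripts, so a gene with long alternative ends, such as Slc8a1 with 18807 bases, reads low on this scale.

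**Figure D3:**
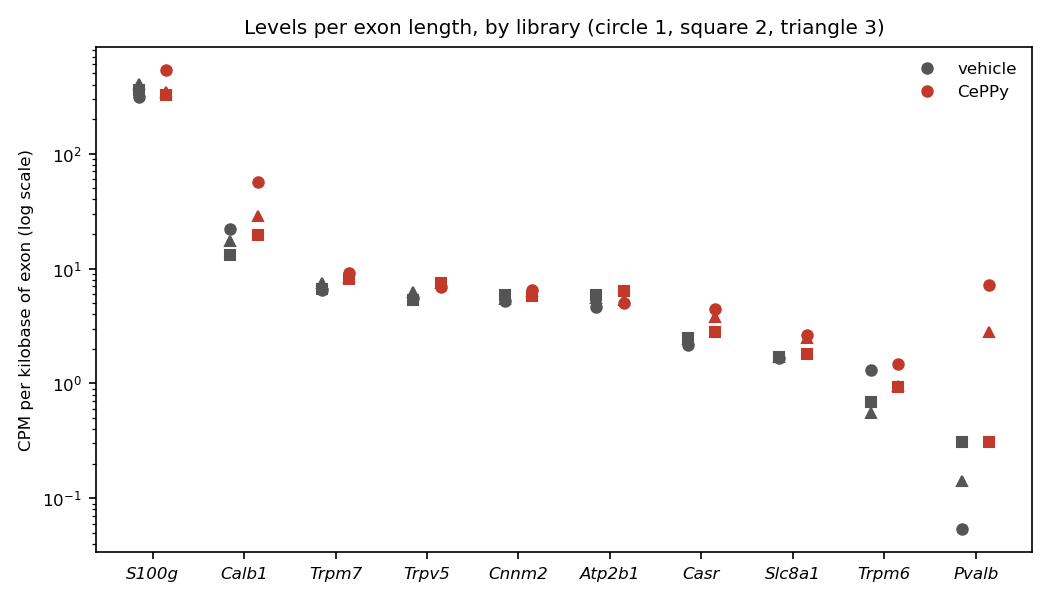
CPM per kilobase of exon on a log scale for the 10 genes in every library, ordered by the vehicle mean, with vehicle in grey and CePPy in red. S100g lies above all others, and Pvalb spans from 0.0535 to 7.14 across the 6 libraries.

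The 3 CePPy libraries differed among themselves in a common pattern. For 8 of the 10 genes, all except Trpv5 and Atp2b1, the order from high to low was CePPy 1, CePPy 3, CePPy 2, which was seen in 21.7% of all genes tested. CePPy 1 was also the highest of all 6 libraries for 8 genes, as for 25.8% of all genes. The same order was seen in the thick ascending limb and proximal tubule marker sums and, reversed, in the injury marker sum. Summed distal convoluted and connecting tubule markers also had it, at 0.42, -0.13 and 0.07 log2 units in CePPy 1, 2 and 3. The collecting duct sum did not, at 0.59, 0.37 and 0.76. The part of those shifts in the values of the 10 genes was not tested.

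Markers of the distal convoluted and connecting tubule other than the 10 genes had a summed level of 2174 to 2781 CPM in vehicle and 2269 to 3323 in CePPy, and the groups overlapped. The kallikrein gene Klk1 made up 49.5% to 59.1% of this sum. Without it the sum was 1009 to 1138 CPM in vehicle and 1111 to 1465 in CePPy, with CePPy 2 inside the vehicle range. All 11 of these markers were tested, and 10 had a log2 fold change above 0 (50.5% of all genes). DESeq2 called 1 higher (3.43% of all genes), Tmem52b (adjusted p = 0.00567), and 0 lower. None passed the edgeR test over all genes. At an unadjusted p under 0.05, 3 were higher (9.65% of all genes) and 0 lower, and the median log2 fold change of the 11 was 0.20. The 4 with the lowest p were Tmem52b (101 ± 8.42 CPM in vehicle and 171 ± 51.7 in CePPy), the sodium channel subunit gene Scnn1g (33.0 ± 2.69 and 41.0 ± 3.25), the cortisol-inactivating enzyme gene Hsd11b2 (103 ± 6.15 and 132 ± 19.6) and Klhl3, which controls the thiazide-sensitive cotransporter (11.0 ± 2.69 and 17.5 ± 7.26). That cotransporter gene, Slc12a3, the defining marker of the distal convoluted tubule, measured 250.1, 231 and 289 CPM in vehicle and 331, 253 and 289 in CePPy.

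Each of the 10 genes was also divided by Slc12a3 within its library, as a description of how far it moved apart from this marker. Only Casr then had all CePPy libraries above all vehicle libraries, at 0.0408, 0.0507 and 0.0400 in vehicle and 0.0636, 0.0522 and 0.0624 in CePPy, a separation seen for 4.35% of all genes. For Trpv5 the ratios were 0.0715, 0.0742 and 0.0703 in vehicle and 0.0676, 0.0965 and 0.0836 in CePPy, so CePPy 1 fell below vehicle. Calb1 gave 0.431, 0.278 and 0.292 in vehicle and 0.827, 0.378 and 0.486 in CePPy, with CePPy 2 under vehicle 1. Casr is also made in the thick limb, so this ratio does not set it against its own main segment. Trpv5 and Calb1 act in the connecting tubule too, which Slc12a3 does not mark, so their ratios do not cover that segment.

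**Figure D4:**
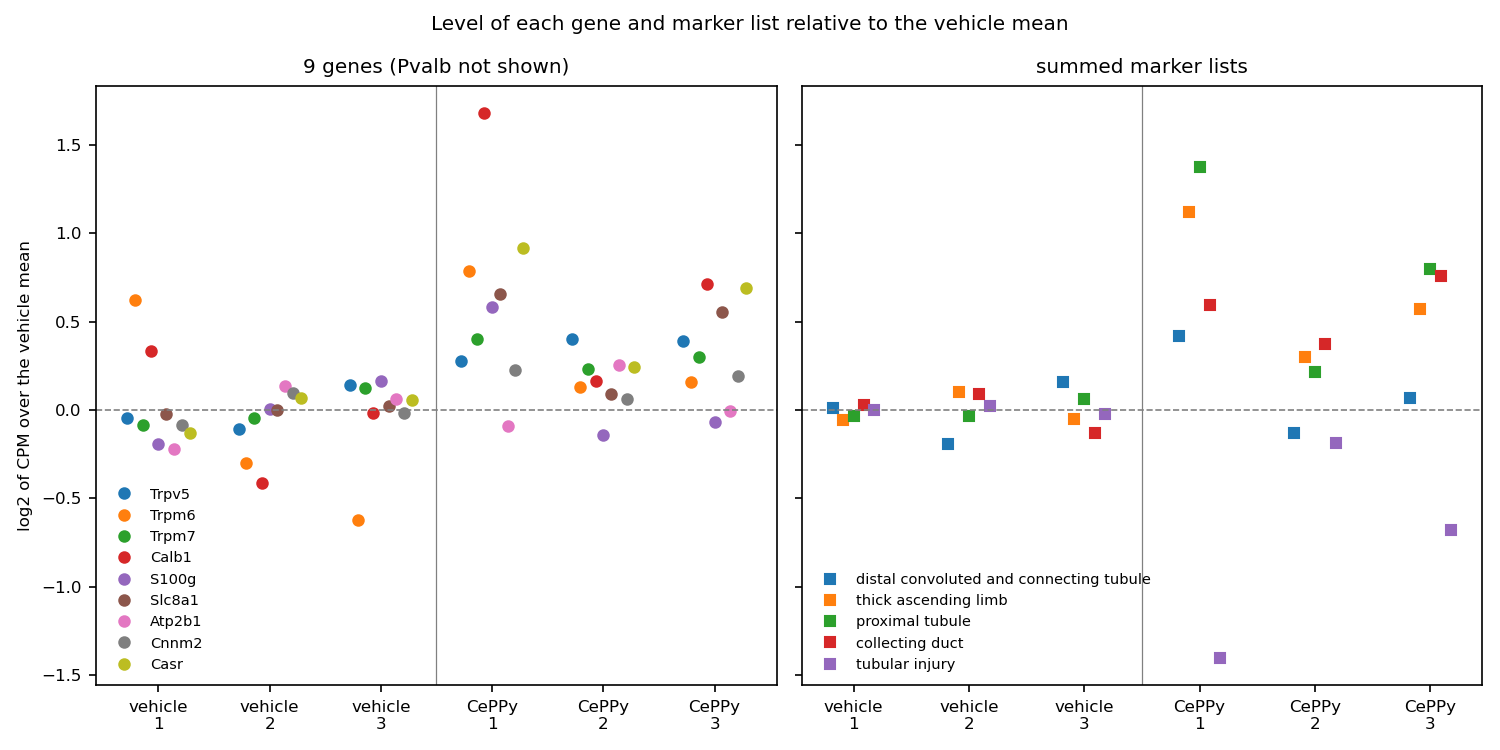
Log2 of CPM over the vehicle mean in each library, for 9 of the genes (left; Pvalb, which reaches 5.40, is not shown) and for 5 summed marker lists (right). CePPy 1 lies farthest from vehicle in Calb1 and in the proximal tubule, thick limb and injury sums, and CePPy 2 lies near vehicle in most.

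By the thick limb route, most magnesium and part of the calcium pass between cells. Of its 11 genes, 10 had higher values in CePPy (50.5% of all genes), and the median log2 fold change of the 11 was 0.67. None passed the edgeR test over all genes. At an unadjusted p under 0.05, 6 were higher (9.65% of all genes) and 0 lower, and DESeq2 called 6 higher (3.43% of all genes). Of the 11, 5 (Slc12a1, Umod, Cldn16, Cldn10 and Kcnj1) also belong to the thick limb marker sum that was higher in each CePPy library. Those with the lowest p included Cldn19, Bsnd and Slc12a1. Cldn19, whose claudin forms the magnesium-permeable junction with claudin-16, measured 15.9, 22.2 and 16.6 CPM in vehicle and 44.1, 33.8 and 42.3 in CePPy. Bsnd, which encodes the protein barttin, differed by 1.06 log2 units with an SE of 0.24 (edgeR adjusted p = 0.11). Slc12a1, the furosemide-sensitive cotransporter that drives the route, measured 88.8, 73.6 and 83.7 CPM in vehicle and 456, 123 and 214 in CePPy, and its log2 fold change of 1.69 was 1.04 without CePPy 1. The single lower value was that of Cldn14, a claudin that blocks the route and is induced through CaSR, at 1.96 ± 0.509 and 1.13 ± 0.911 CPM (log2 fold change -0.78, or -1.63 without CePPy 2; edgeR adjusted p = 0.496; named after its values were seen).

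Of 16 regulators of distal calcium and magnesium transport, 15 were tested. DESeq2 called 1 higher, Egf (adjusted p = 0.00328), and 1 lower, S100a10 (adjusted p = 0.0169). Over all 15416 genes tested, DESeq2 called 528 higher and 498 lower. None of the 15 passed the edgeR test over all genes. At an unadjusted p under 0.05, 1 was higher (9.65% of all genes) and 1 lower, and the median was 0.07. The higher gene was Egf, whose product is a hormone that raises TRPM6 activity, at 17.4, 18.4 and 18.5 CPM in vehicle and 324, 37.9 and 111 in CePPy (log2 fold change 3.12, edgeR adjusted p = 0.104). Without CePPy 1 the Egf log2 fold change was 2.04. The lower gene was S100a10, which with annexin A2 brings TRPV5 to the cell surface, at 335, 334 and 314 CPM in vehicle and 156, 264 and 226 in CePPy (log2 fold change -0.61, edgeR adjusted p = 0.148). Its partner Anxa2 also had lower values in each CePPy library, at 647 ± 36.3 and 447 ± 164 CPM (edgeR adjusted p = 0.297). Both partner genes are made in many cell types, and the injury marker sum was lower in the same CePPy libraries. The part of that shift in their values was not tested.

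Of the 9 genes of calcium hormone signalling, DESeq2 called 1 higher, Kl (adjusted p = 0.0279), and 1 lower, Cyp27b1. Over all 15416 genes tested, DESeq2 called 528 higher and 498 lower. None of the 9 passed the edgeR test over all genes, and their median log2 fold change was 0.08. At an unadjusted p under 0.05, 2 were higher (9.65% of all genes) and 2 lower. Cyp27b1, the enzyme that activates vitamin D, measured 58.0, 9.09 and 21.1 CPM in vehicle and 2.59, 4.89 and 3.07 in CePPy. Vehicle 1 was far above the others, and the groups did not overlap (log2 fold change -3.06, SE 0.64, edgeR adjusted p = 0.102; DESeq2 adjusted p = 0.00358). Without vehicle 1 the log2 fold change was -2.10. Cyp24a1, the enzyme that breaks vitamin D down, measured 172, 178 and 226 CPM in vehicle and 66.7, 102 and 167 in CePPy (log2 fold change -0.78, edgeR adjusted p = 0.212). The vitamin D receptor gene Vdr, whose product switches on Calb1, S100g and Trpv5, measured 110.8, 115 and 106 CPM in vehicle and 157, 121 and 136 in CePPy (log2 fold change 0.32, edgeR adjusted p = 0.176). Kl, or Klotho, a co-receptor that also keeps TRPV5 at the cell surface, measured 203, 216 and 238 CPM in vehicle and 515, 242 and 333 in CePPy (log2 fold change 0.73, edgeR adjusted p = 0.178).

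Of 20 relatives of the 10 genes, 18 were tested. DESeq2 called 1 higher (3.43% of all genes), Magt1 (adjusted p = 0.0327), and 0 lower. None passed the edgeR test over all genes. At an unadjusted p under 0.05, 3 were higher (9.65% of all genes) and 0 lower, and the median was 0.07. The magnesium transporter genes Magt1 (82.4 ± 2.88 and 104 ± 10.3 CPM) and Mrs2 (66.1 ± 1.94 and 80.8 ± 8.34) and the calcium pump gene Atp2b4 (16.5 ± 2.19 and 22.4 ± 1.77) had higher values in each CePPy library. Ptp4a2, which encodes a phosphatase that binds CNNM proteins, had lower values in each (237.4 ± 1.01 and 205 ± 22.4 CPM). Calb2, the calretinin gene, was at 0 in all 6 libraries.

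**Figure D5:**
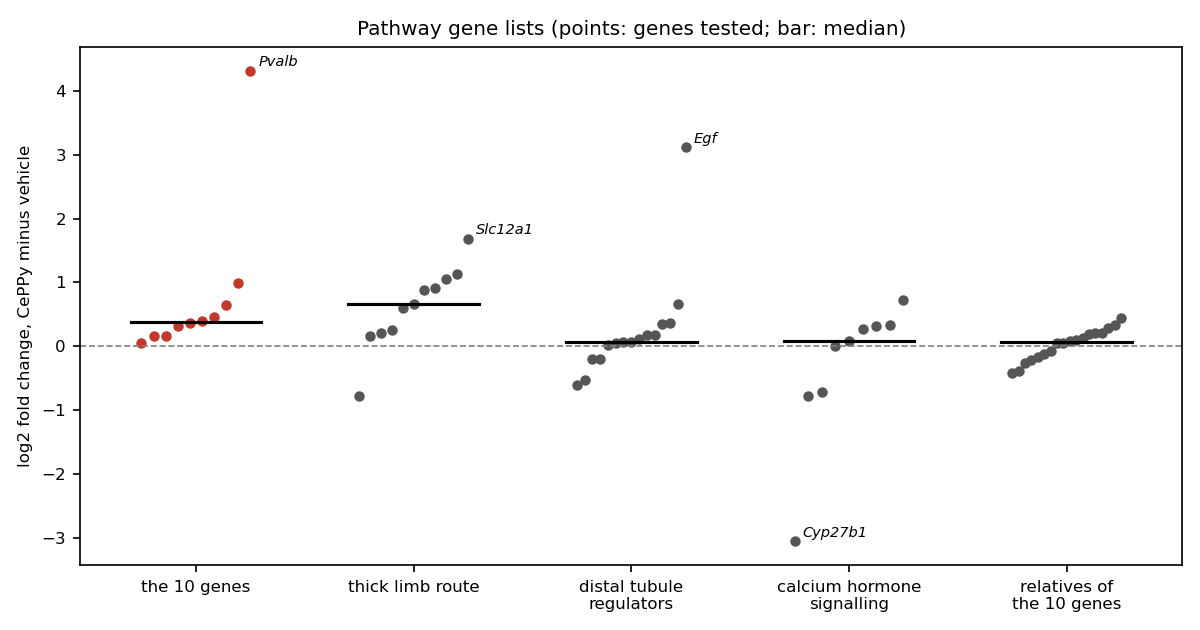
Log2 fold change of CePPy minus vehicle for the 10 genes (red) and for the tested genes of 4 pathway lists (grey), with a bar at each median. The thick limb route has the highest median, 0.67, and the regulator, hormone and relative lists have medians of 0.07, 0.08 and 0.07.

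The genes whose profiles over the 6 libraries were most like those of 4 of the genes were found by the root mean square difference of centred log2 CPM. An offset of 0.1 CPM was added before the log. Pvalb, at 0.0557 to 0.324 CPM in vehicle, lay near this offset, which weighs on its profile, and its matches were the loosest of the 4. Nearest to Pvalb were Egf, with a difference of 0.609, and Akr1c14, with 0.732, a steroid-metabolising enzyme gene at 6.65, 8.65 and 6.92 CPM in vehicle and 95.8, 17.0 and 36.6 in CePPy. Nearest to Calb1 were the provisional locus NewGene_5402 (0.129) and the glycosyltransferase gene Ugt3a1 (0.144). Trpv5 was nearest to the paraoxonase gene Pon3 (0.0402) and the zinc finger gene Zbtb10 (0.043), and S100g to Acyp2 (0.0406) and the complex I subunit gene Ndufa5 (0.053). With 6 libraries and 12749 or 12750 candidate genes, close matches are easily found, so these are descriptions only.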

How the data were processed

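RNA from whole kidneys was extracted with TRIzol and made into libraries with a Yeasen dual-mode mRNA kit, per the labels' protocols. The authors deposited raw, unnormalized read counts for every gene in 1 table. TopHat2, Cufflinks, DESeq (no versions) and the build GRCm38 are named in the submitters' processing notes. The counting program, strand setting and read filters were not given in the sources used here. Groups and replicate numbers came from the sample titles.

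Counts were filtered with filterByExpr (at least 10 counts scaled to library size), scaled by TMM and tested by quasi-likelihood in edgeR 4.0.16 (R 4.3.3), with treatment as the only term, 4 residual degrees of freedom, and Benjamini-Hochberg adjustment over 15416 genes at a threshold of 0.05. The filter and fit follow an earlier analysis of these data. CPM uses TMM-scaled library sizes, and each error is an SD over 3 libraries or the SE or 95% interval of the fitted log2 fold change. Positions and exon lengths came from GENCODE M21 (GRCm38), in which all 10 genes were found under the same symbol. On simulated counts for 15416 genes, the fit recovered 84 of 100 genes changed by 1 log2 unit and 100 of 100 changed by 2, with 14 false calls. The changed genes had means over 2 CPM, and counts varied independently between genes, with no shift shared across a library. Smaller changes were not simulated, so this recovery is not the power in the real libraries. Within each group, the counts of any pair of libraries differed beyond sampling noise (chi-square per degree of freedom 19.7 to 106). Alternatives were DESeq2 1.42.0, limma-voom (limma 3.58.1), other scalings, no filter, a replicate block, and leaving out each library.

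The 10 genes and the lists were chosen with earlier results of these data known. Text names all 10, up to 4 genes with the lowest p of each pathway list and of the distal marker list, and 2 genes nearest in profile to Pvalb, Calb1, Trpv5 and S100g among those with a mean of at least 2 CPM; 1 gene the rule selects is not reported here. An exact permutation test of 3 against 3 libraries cannot give a two-sided p below 0.1 and was not used.

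Of the other marker lists, summed levels overlapped between groups for macrophage, endothelium, podocyte, adrenal, adipose, heart and skeletal muscle, and parathyroid and thyroid genes. The neutrophil and smooth muscle sums were lower in every CePPy library and the collecting duct sum higher.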

Additional observations from a re-analysis of the deposited data

How the results depend on the processing

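Over 12 alternatives, 111 of 120 fold changes of the 10 genes kept their direction and their side of the threshold. DESeq2 added calls for Pvalb, Casr and Trpm7, and leaving out CePPy 2 added Pvalb (edgeR adjusted p = 0.0172), Slc8a1 (0.0172) and Casr (0.0255); the number of the 10 called higher was 3 in each case, and ranged from 0 to 3 over left-out libraries. Signs turned for Atp2b1 without vehicle 1 (-0.040) and without CePPy 2 (-0.049) and for S100g without CePPy 1 (-0.10); with a library left out, Atp2b1 ranged from -0.049 to 0.13 and S100g from -0.10 to 0.29. Over all genes, the fit called 0 higher and 1 lower, DESeq2 528 and 498, and edgeR without the filter 26 and 37; over left-out libraries the counts ran from 0 to 467 higher and from 0 to 344 lower, both maxima without CePPy 2. The number of the 10 higher at an unadjusted p under 0.05 ranged from 5 to 7, where 6.65% to 11.8% of all genes were. The causes were not tested. Another scaling moved the median of all genes by less than 0.03 log2 units. With the replicate number as a block, edgeR called 0 genes lower and 0 higher, and 7 of the 10 were higher at an unadjusted p under 0.05, now with Trpm6, where 8.28% of all genes were. Deviations from the group mean in same-numbered libraries had correlations across genes of -0.143, 0.134 and -0.0081. Only vehicle 2 and CePPy 2 correlated best with their own number. With 3 libraries per group these deviations are not independent, so whether the numbers pair the samples is not known. Depth limits Pvalb, with 2 to 11 counts per vehicle library.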
